A study of Mus musculus with 6 samples.

Results

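The photoreceptor cilium, BBSome and intraflagellar transport (IFT) genes were examined in RNA-seq of mouse retina. They were taken by name as 37 of the 55376 genes in the count table, by a rule that uses no measured value, although earlier results of these data were known when the list was made. By the roles of their proteins they comprised 6 BBSome subunits, 3 chaperonin-like Bardet-Biedl proteins, the BBSome GTPase Arl6, 11 IFT-B and 3 IFT-A proteins, 2 kinesin-2 motor subunits, 7 proteins of the connecting cilium or transition zone, 2 proteins of the outer segment axoneme and 2 other photoreceptor cilium proteins. The study compared retinas of wild-type (WT) mice with those of Wfs1-KO mice, which carry a deletion of exon 8 of Wfs1, the gene of the endoplasmic reticulum protein wolframin that is mutated in Wolfram syndrome 1. There were 3 retinal samples per genotype, from different mice according to the methods, all taken at postnatal day 240. The strain is given as C57x129 in the sample labels and as a C57BL/6 J background in the methods. For the RNA the labels name Trizol and the methods a column kit. The line carries the deletion in all tissues, so an effect in the photoreceptors themselves cannot be told apart from one that began in another tissue.

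The outer segment of a rod or cone is a modified primary cilium, joined to the cell body by a narrow connecting cilium, and the proteins that fill it are made in the inner segment and must pass this gate. Kinesin-2 carries IFT trains outwards and dynein-2 brings them back, IFT-B and IFT-A being the protein complexes of these trains, while the BBSome is a coat-like complex that links membrane cargo to them. Mutations in genes of this machinery cause Bardet-Biedl syndrome, retinitis pigmentosa, Leber congenital amaurosis and nephronophthisis with blindness.

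The promoters of cilium genes are known for the X-box, the motif bound by RFX transcription factors, and it was searched here because it is the sequence feature most often shared by genes of this kind. Windows from 250 bases before to 50 bases after the RefSeq start (GRCm38.p6) were found for 31 of the 37 genes, and not for Ift80, Ift81, Ift122, Rp1, Rp1l1 and Tmem67. The X-box search used an inverted repeat of 2 half-sites with 0 to 3 bases between them, on both strands. It matched 4 of these 31 genes (12.9%), which were Ahi1, Bbs1, Ift57 and Kif17, against 474 of all 27025 genes in the promoter table (1.75%). The 30-base stretches that hold the matches are shown 5′ to 3′ on the strand of the gene, with the X-box in capitals.
Ift57 distal: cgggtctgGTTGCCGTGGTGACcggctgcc
Ift57 proximal: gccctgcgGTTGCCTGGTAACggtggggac
Kif17: tcacggagGTTGCCCAGCAACggcgaacgc
Bbs1: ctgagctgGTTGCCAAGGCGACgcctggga
Ahi1: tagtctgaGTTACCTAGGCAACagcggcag
Ift57 had 2 matches, 87 and 60 bases before the RefSeq start. Its stretches lie at chr16:49699199-49699228 and chr16:49699226-49699255 on the plus strand. The Kif17 stretch lies at chr4:138262170-138262199 on the plus strand, with its match 73 bases before the start. The Bbs1 match begins 1 base after the start, within chr19:4906605-4906634 on the minus strand, and the Ahi1 match 21 bases after it, within chr10:20952560-20952589 on the plus strand. The half-site GTTGCC alone is part of each of these matches on one strand or the other. It was present on either strand for 12 of the 31 genes (38.7%), and for 14.1% of all genes. The 31 genes had 36 windows, as some have more than 1 RefSeq start, and a gene was counted if any window held the motif. Of 57 other cilium genes with a window, 6 had an X-box (10.5%) and 22 the half-site (38.6%).

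The core TAATCC bound by CRX, the homeodomain factor of photoreceptors, was searched on both strands of the same windows. It was found for 2 of the 31 genes (6.45%), Bbs1 and Rpgrip1, against 8.14% of all genes. The Rpgrip1 stretch at chr14:52110863-52110892 (plus strand) holds it as the complement, GGATTA, 28 bases before the start, and the Bbs1 stretch at chr19:4906807-4906836 (minus strand) holds it 197 bases before the start. Both are shown with the core in capitals.
Rpgrip1: gctaaaaggcctGGATTAgtgtctcctcta
Bbs1: tcagtctagtctTAATCCctaaaaagcgct
A match describes the letters of a window and not a bound site.

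Libraries held between 17916885 and 101334381 counts, and 3 counts, taken as the floor of detection, equalled 0.0291 to 0.170 CPM, which scales counts by the size of the library. The 37 genes took between 0.553% and 0.665% of the counts of a library, with at least 59 counts for every gene in every retina, so all 37 passed the filter on low counts that left 18547 genes for testing. The knocked-out gene was checked first: Wfs1 had 64.9, 61.4 and 69.9 CPM in the WT retinas and 9.63, 0.900 and 11.5 CPM in the Wfs1-KO retinas, lower in every mutant. On all 6 retinas edgeR did not call even this gene (log2 change -3.15, with an adjusted p of 0.979), and it did so without Wfs1-KO replicate 2 (log2 change -2.64, with an adjusted p of 2.84e-05). The Wfs1-KO replicate 2 library stood apart, with a mean correlation of log2 CPM to the other 5 of 0.918, against 0.962 to 0.971 for the others, so results are also given without it. All 12 rod markers and all 9 cone markers were detected in every retina, and the summed level of 11 pigment epithelium markers was 115, 170 and 130 CPM in WT retinas and 91.1, 418 and 52.7 CPM in Wfs1-KO retinas. It was thus highest in Wfs1-KO replicate 2 and lowest in the other 2 mutants, and without replicate 2 these markers had 7 of 11 lower without overlap (11.4% of all tested genes), 6 at an unadjusted p under 0.05 and 1, Lrat, at an adjusted p of 0.0467 from edgeR. Summed markers of blood (481 against 12.3 to 41.3 CPM), microglia and macrophages (310 against 41.5 to 62.8 CPM) and lens (14.6 against 2.38 to 5.54 CPM) were also highest in that retina. In this retina 6 of 7 blood, 9 of 10 microglial, 8 of 11 pigment epithelium and 6 of 12 lens markers exceeded the other 5. The share over all tested genes was 38.4%. So did 5 of 9 ganglion cell, 3 of 8 Mueller glia and 3 of 9 amacrine and horizontal cell markers. For rods, cones and bipolar cells there were 4 of 12, 2 of 9 and 2 of 9. The summed cone, ganglion cell and Mueller glia markers were also highest in that retina, and the summed rod markers were lowest. No defining marker of pigment epithelium or microglia was at 0 in any retina, while Cryba2, Cryba4, Mip and Lim2 of lens were at 0 in at least 1 retina. The part of other cells in the results below was not tested.

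Levels were compared between genes as RPKM, which divides the scaled counts by the exon length in the count table. In WT retinas the 37 genes spanned from 1.40 ± 0.377 RPKM for Kif17 to 648 ± 113 RPKM for Tulp1 (SD, n = 3 each), with a median of 16.2 RPKM. Above 100 RPKM were Tulp1, Rp1 and Rp1l1, 23 genes lay between 10 and 100 RPKM, and 11 lay below 10 RPKM. Tulp1, Rp1 and Rp1l1 made up between 60.6% and 66.7% of the summed CPM of the 37 genes in each retina. Tulp1 stood above all the others in every WT retina. Rp1 (123 to 224 RPKM) and Rp1l1 (91.4 to 124 RPKM) overlapped, so their order was not beyond the spread. Below them, Arl6 (64.9 to 82.1 RPKM) lay above the ranges of Bbs7 (47.5 to 62.3), Ift20 (40.3 to 60.6) and Rpgrip1 (43.3 to 50.2), which overlapped one another.

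**Figure D1:**
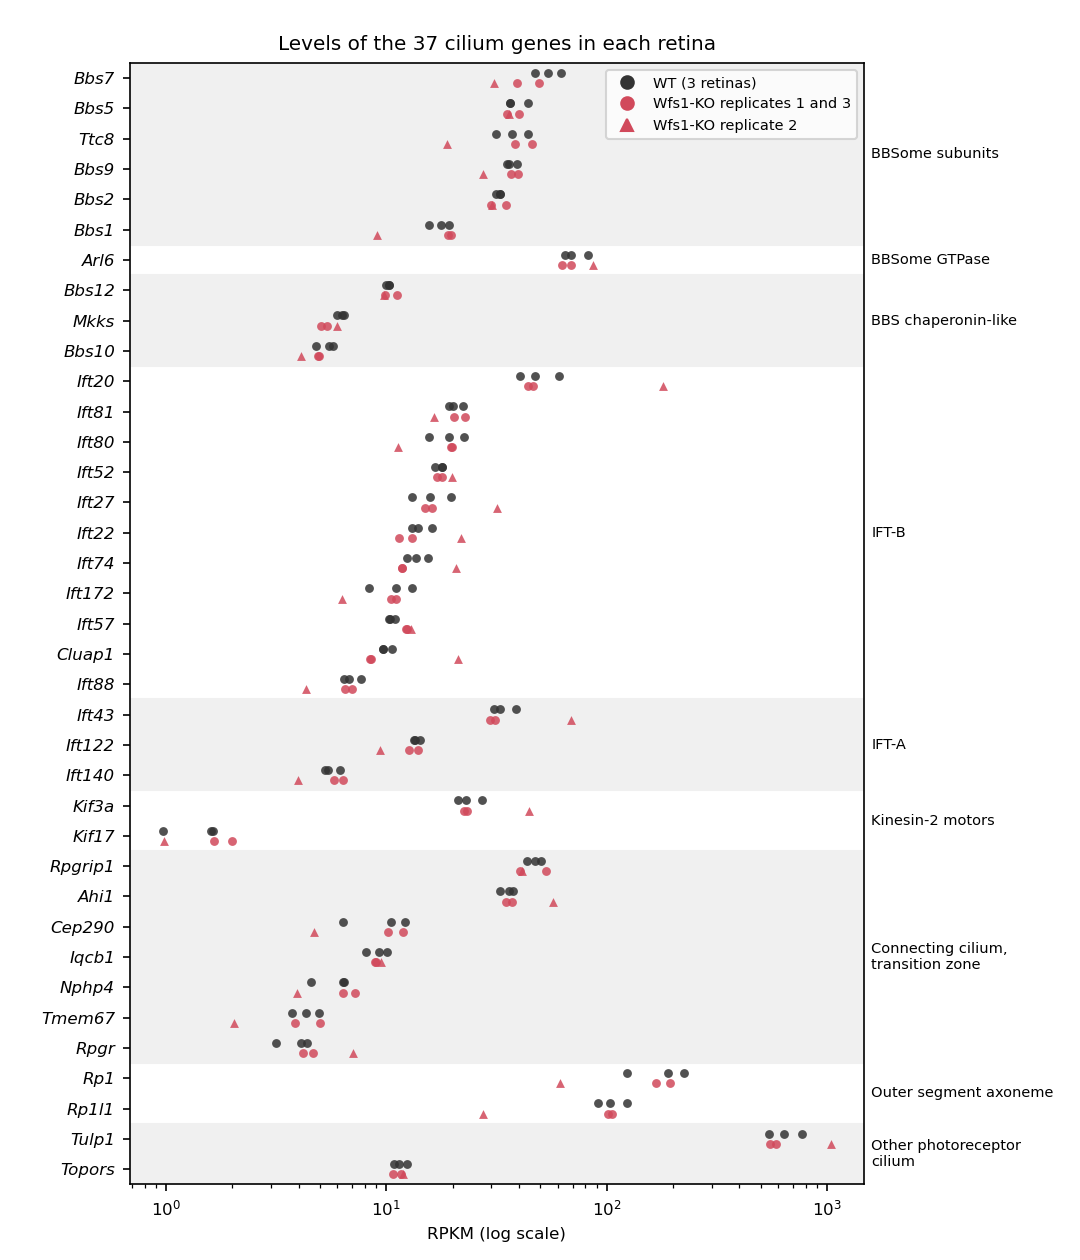
RPKM on a log scale of each of the 37 genes, ordered by role, with black points for the 3 WT retinas, red circles for Wfs1-KO replicates 1 and 3 and a red triangle for Wfs1-KO replicate 2. Circles of both genotypes lie close together for most genes, while the triangle lies outside the other 5 points for 30 genes, below them for 17 and above them for 13.

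No cilium, BBSome or IFT gene passed the test between genotypes in the fit over all genes. None of the 37 had an adjusted p under 0.05 in edgeR's quasi-likelihood test (0.0108% of all tested genes), and their adjusted p-values lay between 0.979 and 0.999. None had an unadjusted p under 0.05 either, against 2.81% of all tested genes, and the smallest was 0.0779 for Bbs7. DESeq2 and limma-voom also called none of them at either threshold. The log2 fold changes, Wfs1-KO minus WT, ran from -0.46 for Bbs7 to 0.86 for Ift20, with 17 above and 20 below 0. Their median was -0.03, and the median of all tested genes was 0.02. Without Wfs1-KO replicate 2, none passed an adjusted p of 0.05 (0.125% of all tested genes) or an unadjusted p of 0.05 (5.19%, of which 2.80% higher and 2.39% lower). The smallest adjusted p was then 0.963. The log2 fold changes in this fit ran from -0.31 for Bbs7 to 0.34 for Kif17 around a median of -0.02, with 15 above and 22 below 0.

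How large a change these retinas could have hidden is given by the 95% intervals of the fold changes. On all 6 retinas, 27 of 37 intervals lay within a log2 change of 1 in either direction. The other 10 reached it, and belonged to Ift20, Ift27, Cluap1, Ift43, Kif3a, Cep290, Rpgr, Tmem67, Rp1 and Rp1l1. Without Wfs1-KO replicate 2 all 37 intervals lay within 1, and 23 lay within 0.5, against 9 on all 6 retinas. The median standard error fell from 0.254 to 0.149, and it became smaller for each of the 37 genes with 1 retina fewer. The common dispersion, the spread that edgeR estimates over all genes, fell from 0.128 to 0.0322. The 37 standard errors draw on spread estimated across genes, so their fall does not make 37 separate results. The sign of the fold change differed between the fits for 20 of the 37 genes.

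**Figure D2:**
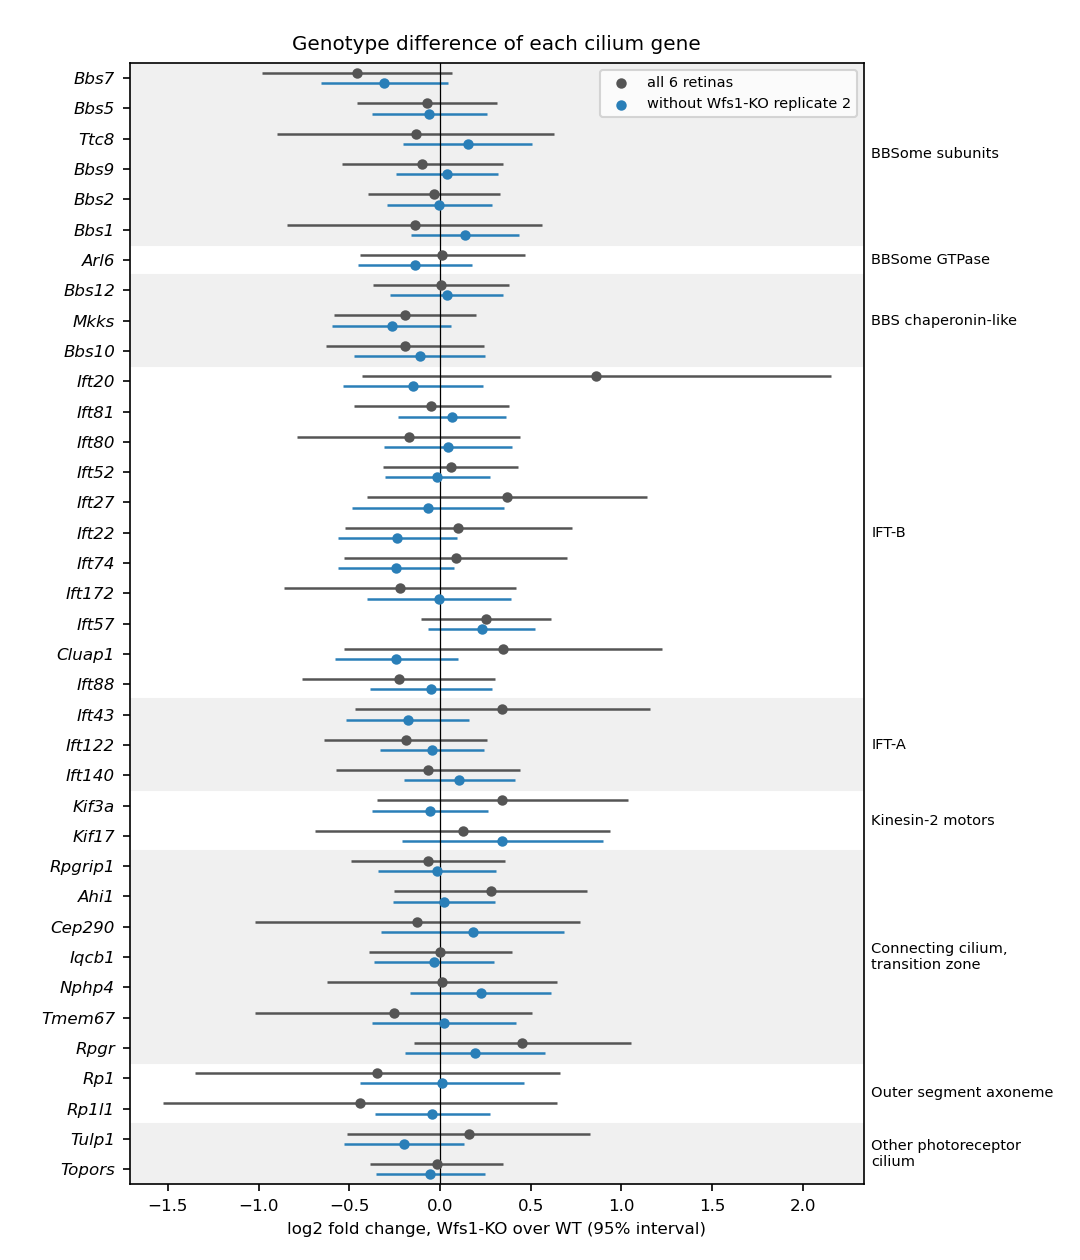
Log2 fold change of each of the 37 genes, Wfs1-KO minus WT, with its 95% interval, on all 6 retinas and without Wfs1-KO replicate 2. Every interval crosses 0 in both fits, and all 37 are narrower without that retina.

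The BBSome subunits showed the lowest values in Wfs1-KO replicate 2 for most members and no shared difference without it. All 6 had log2 fold changes below 0 on all 6 retinas (median -0.12), while without Wfs1-KO replicate 2 there were 3 on each side (median 0.02). Bbs7, a subunit whose human counterpart is mutated in Bardet-Biedl syndrome, had the highest mean level of the 6 and the lowest fold change of all 37 genes. It measured 47.5, 62.3 and 54.2 RPKM in WT retinas, and 49.4, 30.8 and 39.2 RPKM in Wfs1-KO retinas. Mutant and WT values overlapped, since Wfs1-KO replicate 1 lay above the lowest WT retina. The fold change of Bbs7 was -0.46 (SE, the standard error, 0.22, 95% interval -0.98 to 0.07), and without Wfs1-KO replicate 2 it was -0.31 (SE 0.16, 95% interval -0.66 to 0.05). Bbs1, the subunit that binds Arl6, had the lowest level of the 6. It measured 15.7, 17.8 and 19.2 RPKM in WT and 19.7, 9.08 and 19.0 RPKM in Wfs1-KO retinas, so that Wfs1-KO replicate 2 was low and the other 2 mutants were at the level of the highest WT retina. Ttc8, which encodes BBS8, had a similar spread, from 31.5 to 44.0 RPKM in WT and 38.4, 18.9 and 45.6 RPKM in Wfs1-KO retinas. Bbs2, Bbs5 and Bbs9 had means between 32.3 and 39.0 RPKM in WT, and fold changes between -0.10 and -0.03.

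Arl6, the small GTPase that recruits the BBSome to membranes, measured 68.6, 82.1 and 64.9 RPKM in WT retinas and 62.7, 86.2 and 68.5 RPKM in Wfs1-KO retinas. The genotypes overlapped, with Wfs1-KO replicate 1 below and replicate 2 above every WT retina, and the fold change was 0.01 (SE 0.19). The chaperonin-like proteins, which help to assemble the BBSome, were less abundant per length. Bbs12 had 10.02, 10.3 and 10.3 RPKM in WT retinas and 9.90, 9.74 and 11.1 RPKM in Wfs1-KO retinas. Bbs10 had 4.77, 5.47 and 5.71 RPKM in WT and 4.96, 4.09 and 4.88 RPKM in Wfs1-KO retinas. The genotypes overlapped for both genes, with fold changes of 0.01 (SE 0.16) for Bbs12 and -0.19 (SE 0.19) for Bbs10. Mkks, the third of them, had a fold change of -0.19 (SE 0.17), and 29.7% of its exon bases are shared with other annotated genes.

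Among the 11 IFT-B genes the fold changes lay between -0.23 for Ift88 and 0.86 for Ift20, with 7 above and 4 below 0 (median 0.09), and without Wfs1-KO replicate 2 there were 3 above and 8 below 0 (median -0.05). Ift57, an IFT-B protein that binds Ift20, was the one gene of the 37 whose genotypes did not overlap, against 8.96% of all tested genes and 5.01% in the direction of higher levels in the mutants. None was lower in all mutants without overlap (3.94%). It lies at chr16:49699233-49765126 (mm10, plus strand), and 8.45% of its exon bases are shared with the antisense gene Gm15518. Ift57 measured 10.2, 10.3 and 10.9 RPKM in WT retinas and 12.3, 12.9 and 12.4 RPKM in Wfs1-KO retinas, so that all 3 mutants, replicate 2 included, lay above all 3 WT retinas. The fold change was 0.26 (SE 0.15, 95% interval -0.10 to 0.61), with an unadjusted p of 0.136 and an adjusted p of 0.979 from edgeR. It was 0.23 (SE 0.13) without Wfs1-KO replicate 2. Over all the alternatives it stayed between 0.23 and 0.27 and passed no threshold.

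Ift20, the IFT-B protein that also resides at the Golgi, had the highest mean level of its group. It measured 60.6, 47.3 and 40.3 RPKM in WT and 43.8, 180 and 46.1 RPKM in Wfs1-KO retinas. Wfs1-KO replicate 2 was thus well above the other 5, while the remaining 2 mutants lay within the WT range. The fold change of 0.86 (SE 0.55) became -0.15 (SE 0.17) without that retina. Ift27, a small GTPase of the IFT-B complex, was also highest in that retina, with 19.6, 15.7 and 13.1 RPKM in WT and 16.2, 31.6 and 14.96 RPKM in Wfs1-KO retinas. Its fold change of 0.37 (SE 0.33) became -0.07 (SE 0.19) without Wfs1-KO replicate 2. Ift88, a core IFT-B protein whose partial loss in mice causes photoreceptor degeneration, moved the other way in that retina. It measured 6.44, 7.70 and 6.76 RPKM in WT and 6.52, 4.34 and 7.01 RPKM in Wfs1-KO retinas, and the 2 remaining mutants lay within the WT range. Of the others, Cluap1 was at 9.63 to 10.6 RPKM in WT retinas and at 8.54, 21.2 and 8.45 RPKM in Wfs1-KO retinas. Of its exon bases 50.03% are shared with other annotated genes.

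In the IFT-A complex, Ift43 was the most abundant of the 3 members per length, with 38.6, 32.9 and 30.7 RPKM in WT and 29.6, 69.1 and 31.0 RPKM in Wfs1-KO retinas. Ift140, a core subunit of retrograde transport, measured 5.42, 5.29 and 6.19 RPKM in WT and 5.79, 3.97 and 6.38 RPKM in Wfs1-KO retinas. In Wfs1-KO replicate 2 the first was above and the second below all other retinas, while the genotypes overlapped for both. The fold changes were 0.34 (SE 0.35) for Ift43, -0.07 (SE 0.22) for Ift140 and -0.19 (SE 0.19) for Ift122.

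Kif3a, a subunit of the heterotrimeric kinesin-2, was the more abundant of the motor genes. It measured 21.1, 27.2 and 22.9 RPKM in WT and 22.6, 44.6 and 23.3 RPKM in Wfs1-KO retinas, with only Wfs1-KO replicate 2 outside the WT range. Kif17, the homodimeric kinesin-2 motor, was the lowest of the 37 genes in WT retinas and had 1.60, 1.64 and 0.970 RPKM there and 1.98, 0.981 and 1.64 RPKM in Wfs1-KO retinas. Its genotypes overlapped, and the fold change of 0.12 (SE 0.35) became 0.34 (SE 0.25) without Wfs1-KO replicate 2.

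Of the 7 connecting cilium and transition zone genes, 4 had fold changes above and 3 below 0 (median 0.00), and without Wfs1-KO replicate 2 there were 5 above and 2 below (median 0.02). Rpgrip1, which anchors Rpgr at the connecting cilium, had the highest mean level. It shares 17.1% of its exon bases with Supt16 on the opposite strand. It measured 43.3, 50.2 and 47.3 RPKM in WT and 40.3, 41.4 and 52.9 RPKM in Wfs1-KO retinas, and the mutants spanned the WT values. Rpgr, the X-linked retinitis pigmentosa gene, measured 3.17, 4.37 and 4.08 RPKM in WT and 4.20, 7.05 and 4.66 RPKM in Wfs1-KO retinas. Wfs1-KO replicate 2 was the highest, and replicate 1 lay below the highest WT retina, so the genotypes overlapped. The fold change of Rpgr was 0.45 (SE 0.25), and 0.19 (SE 0.18) without Wfs1-KO replicate 2. Tmem67, a transmembrane protein of the transition zone also called meckelin, measured 3.73, 4.93 and 4.32 RPKM in WT and 3.85, 2.04 and 4.98 RPKM in Wfs1-KO retinas. Here Wfs1-KO replicate 2 was the lowest of the 6, and the fold change of -0.25 (SE 0.33) became 0.02 (SE 0.18) without it. Cep290, a large transition zone protein mutated in Leber congenital amaurosis, varied within WT as well, with 6.37, 12.2 and 10.6 RPKM, and measured 10.1, 4.68 and 11.9 RPKM in Wfs1-KO retinas. Nphp4 and Iqcb1, both nephronophthisis genes, and Ahi1, a Joubert syndrome gene, had fold changes of 0.01, 0.00 and 0.28.

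Rp1 and Rp1l1, microtubule proteins of the outer segment axoneme, had the 2 lowest fold changes after Bbs7, and these rested on 1 retina. Rp1 measured 123, 224 and 190 RPKM in WT and 168, 61.5 and 194 RPKM in Wfs1-KO retinas. Rp1l1 measured 91.4, 104 and 124 RPKM in WT and 101, 27.6 and 106 RPKM in Wfs1-KO retinas. For both, Wfs1-KO replicate 2 was below the other 5 retinas and the remaining mutants lay within the WT range. Fold changes of -0.34 (SE 0.43) for Rp1 and -0.44 (SE 0.46) for Rp1l1 became 0.01 (SE 0.20) and -0.04 (SE 0.14) without that retina.

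Tulp1, a tubby-like protein needed for transport to the outer segment, moved opposite to the axoneme genes in Wfs1-KO replicate 2. It measured 767, 542 and 635 RPKM in WT and 585, 1037 and 549 RPKM in Wfs1-KO retinas, with the remaining 2 mutants within the WT range. The ratio of Rp1l1 to Tulp1 in RPKM was therefore 0.0266 in Wfs1-KO replicate 2 and 0.119 to 0.195 in the other 5 retinas. Topors, a ubiquitin ligase found at the photoreceptor basal body, was at 10.8, 12.5 and 11.4 RPKM in WT and 10.7, 11.9 and 11.7 RPKM in Wfs1-KO retinas, with overlapping genotypes and a fold change of -0.02 (SE 0.16).

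Among the mutant retinas, replicate 2 differed from the other 2 for most of the 37 genes. The median coefficient of variation of the 37 genes was 11.0% over the WT retinas and 28.3% over the Wfs1-KO retinas. It was 5.54% over Wfs1-KO replicates 1 and 3. This last value rests on 2 retinas left after the most distant one was set aside, so it cannot be set against that of WT. Wfs1-KO replicate 2 lay below the other 5 retinas for 17 genes, above them for 13 and inside their range for 7, so that 81.1% were outside, against 75.3% of all tested genes. For each other retina this share was between 13.5% and 29.7% of the 37 genes, and between 17.3% and 33.4% of all tested genes. Wfs1-KO replicate 2 was also the retina farthest from the mean of the others for 28 of the 37 genes.

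In Wfs1-KO replicate 2 short cilium genes tended to be high and long ones low. The genes that lay above the other 5 retinas had a median exon length of 2541 bases, and those below had a median of 4235 bases. Of the 4 genes under 1500 bases 3 were above the mean of the other 5, with a median log2 difference of 1.04 from it, and of the 9 genes of 5000 bases or more 8 were below, with a median of -0.79. Over all tested genes the medians of these length classes were 0.79 and -0.54. The extremes were Ift20 (1141 bases, log2 difference 1.91) and Rp1l1 (6684 bases, log2 difference -1.93). Exceptions were Ahi1 (5094 bases), which was high, and Ttc8 (2308 bases), which was low with a log2 difference of -1.06. Across the 37 genes, which share libraries and are not independent replicates, Spearman's rho between exon length and the log2 difference from the other 5 retinas was -0.63 in Wfs1-KO replicate 2. It was -0.16, 0.26 and 0.59 in WT replicates 1, 2 and 3, and 0.58 and 0.59 in Wfs1-KO replicates 1 and 3. Since each retina was compared with a mean that includes the other libraries, replicate 2 enters all of these values. Over all 18547 tested genes rho was -0.39 in Wfs1-KO replicate 2 and between -0.15 and 0.37 in the others. RNA quality was not measured in these data, and its part in the length relation was not tested.

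**Figure D3:**
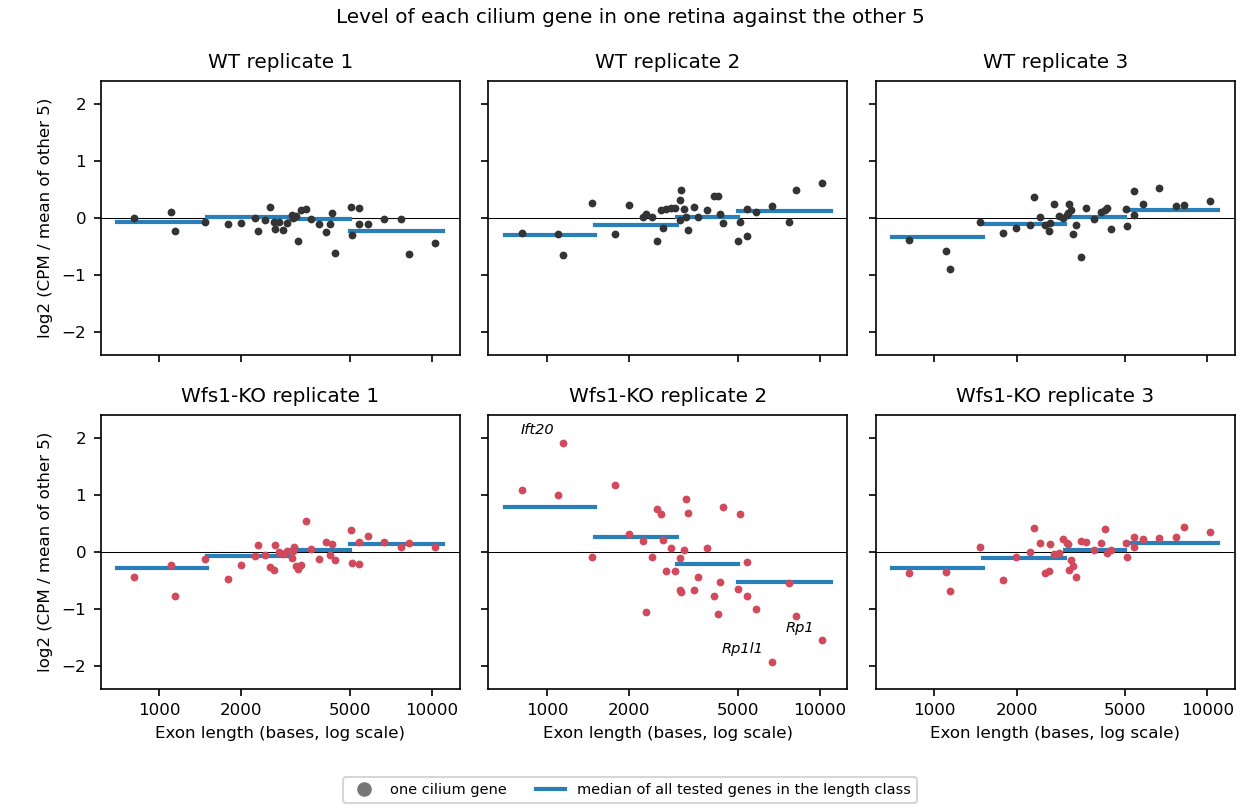
Log2 difference of each of the 37 genes from the mean of the other 5 retinas (vertical axis) against its exon length in bases on a log scale, 1 panel per retina, with blue lines for the median of all tested genes in 4 length classes. The points of Wfs1-KO replicate 2 fall from 1.91 for Ift20 to -1.93 for Rp1l1, while those of the other retinas stay between -0.90 and 0.61.

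Without Wfs1-KO replicate 2, with the scaling of the remaining libraries, 5 genes had genotypes that did not overlap. Ift57 was the one that was higher in the mutants (11.0% of all tested genes were), and Mkks, Ift22, Ift74 and Cluap1 were lower (11.4%). The 4 lower genes had fold changes between -0.27 and -0.23 with standard errors of 0.15, and none passed an unadjusted p of 0.05.

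The levels were also read against the rod markers, since rods make up most of the cells of a mouse retina. The summed level of the 12 rod markers was 80362, 73784 and 81140 CPM in WT and 72055, 61299 and 72226 CPM in Wfs1-KO retinas, lower in all 3 mutants than in each WT retina, although none of the 12 passed an unadjusted p of 0.05 in edgeR on all 6 retinas. Without Wfs1-KO replicate 2 all 12 rod markers had log2 fold changes below 0 (median -0.23), 9 were lower without overlap (11.4% of all tested genes), 4 had an unadjusted p under 0.05 (2.39%) and none an adjusted p under 0.05, the smallest being 0.572. The summed level of the 37 cilium genes was 5861, 6649 and 6582 CPM in WT and 5965, 5694 and 6309 CPM in Wfs1-KO retinas, which overlapped. As a share of the rod sum the 37 genes stood at 7.29%, 9.01% and 8.11% in WT and at 8.28%, 9.29% and 8.74% in Wfs1-KO retinas, again overlapping. In whole retina, fewer cells of a type and less RNA per cell cannot be told apart.

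A further 64 genes of the same machinery were listed to place the 37 in their pathway: 13 of the BBSome and IFT, 7 of the cilium motors, 17 of the transition zone and 27 of the basal body and photoreceptor cilium. All were tested and none had an adjusted p under 0.05, with a median log2 fold change of -0.06 (0.00 without Wfs1-KO replicate 2). At an unadjusted p under 0.05 there were 3 higher genes, 1 each in the BBSome and IFT, motor and transition zone groups, and no lower one, against 2.24% and 0.566% of all tested genes. DESeq2 also called none of the 64 at an adjusted p of 0.05, and had the same 3 genes, Wdr60, B9d1 and Ift46, at an unadjusted p under 0.05. Of the 64, 4 were higher in the mutants without overlap and 3 were lower, against 5.01% and 3.94% of all tested genes.

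Wdr60, an intermediate chain of the retrograde motor dynein-2, was higher in every mutant retina. It measured 38.0, 40.2 and 37 CPM in WT and 54.4, 61.0 and 64.4 CPM in Wfs1-KO retinas, a fold change of 0.64 on the log2 scale (SE 0.16), with an unadjusted p of 0.00431 and an adjusted p of 0.979 from edgeR. Without Wfs1-KO replicate 2 it was 0.62 (SE 0.14), with an adjusted p of 0.262 from edgeR. B9d1, a protein of the transition zone, measured 10.6, 9.65 and 10.3 CPM in WT and 14.2, 27.1 and 12.9 CPM in Wfs1-KO retinas. Ift46, a core IFT-B protein, measured 41.1, 36.1 and 34.8 CPM in WT and 46.3, 77.7 and 49.4 CPM in Wfs1-KO retinas. The genotypes did not overlap for either gene, with Wfs1-KO replicate 2 the highest for both. Their log2 fold changes of 0.83 (SE 0.31) for B9d1 and 0.63 (SE 0.24) for Ift46 were 0.41 (SE 0.16) and 0.35 (SE 0.14) without that retina.

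In the other direction the smallest unadjusted p-values belonged to Prom1, Cep164 and Mak. Prom1, a protein of the newly forming outer segment discs that lies on chromosome 5 as Wfs1 does, measured 655, 768 and 697 CPM in WT and 567, 524 and 604 CPM in Wfs1-KO retinas. Evc and Evc2, which lie nearer to Wfs1 on that chromosome, had log2 fold changes of 0.12 (SE 0.23) and 0.06 (SE 0.21). Cc2d2a, which lies near Prom1, had -0.08 (SE 0.28). The part of chromosomal position was not tested. Cep164, a protein of the distal appendages of the basal body, measured 135, 134 and 173 CPM in WT and 127, 83.5 and 122 CPM in Wfs1-KO retinas. The genotypes did not overlap for Prom1 and Cep164, as for 3.94% of all tested genes in this direction. Their log2 fold changes were -0.32 (SE 0.16) and -0.41 (SE 0.22). Mak, a kinase that limits the length of the photoreceptor cilium, measured 174, 207 and 198 CPM in WT and 174, 113 and 175 CPM in Wfs1-KO retinas. The mutants of Mak reached the lowest WT retina, and its log2 fold change was -0.32 (SE 0.22).

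**Figure D4:**
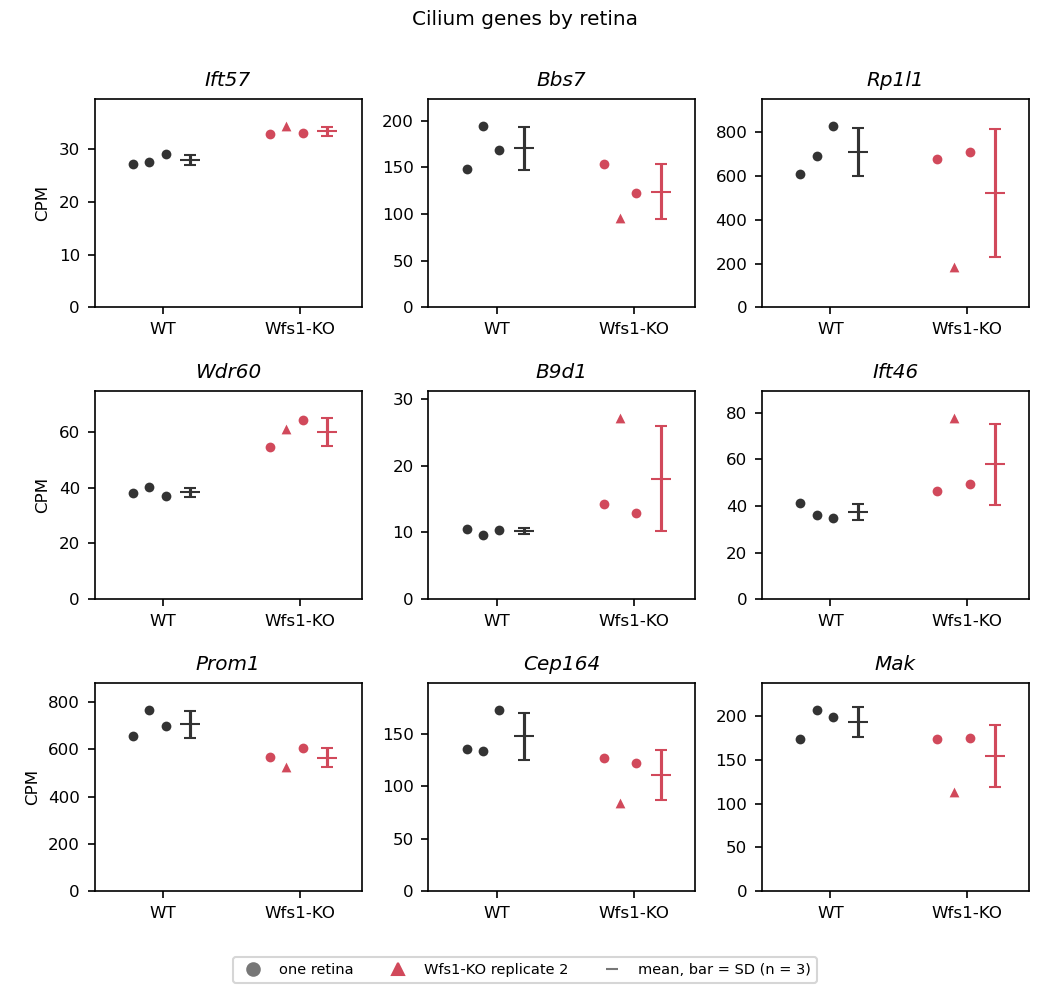
CPM of 3 of the 37 genes (top row) and 6 other cilium genes in each retina, with a horizontal line for the mean and a bar for the SD (n = 3), black for WT and red for Wfs1-KO, and a triangle for Wfs1-KO replicate 2. Wdr60 and Ift57 separate the genotypes with all 3 mutants close together, while Rp1l1, B9d1 and Ift46 have 1 mutant retina far from the other 2.

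Genes of motile cilia, which photoreceptors do not build, were read as a comparison. Of 17 listed, 15 were found in the table and 13 were tested, with a median log2 fold change of 0.01, and Mns1 was the one past an adjusted p of 0.05. Mns1 had 10.7, 11.6 and 10.6 CPM in WT and 0.970, 1.42 and 1.02 CPM in Wfs1-KO retinas (log2 fold change -3.27, SE 0.26, with an adjusted p of 0.0288 from the quasi-likelihood test of edgeR). It lies at chr9:72438535-72462025, and 54.1% of its exon bases are shared with Tex9 on the opposite strand. The remaining listed genes summed to 44.9, 49.6 and 48.1 CPM in WT and to 42.5, 41.3 and 46.0 CPM in Wfs1-KO retinas, which overlapped.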

How the data were processed

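RNA-seq counts of 6 retinas were analysed. Per the submitters' processing notes, the authors trimmed reads with Trimmomatic 0.39, mapped them to mm10 with STAR 2.5.3a and counted them per gene with featureCounts 1.6.4. The deposited values are raw counts per gene with the exon length. The strand setting is not given in the sources used here, and 71.1% to 79.3% of counts from 1 to 10 were even. Columns were matched by genotype letter (C read as control, W as Wfs1) and replicate number, and 2 columns with no counterpart among the listed samples were left out. Genotypes were compared with edgeR 4.0.16 (R 4.3.3; TMM scaling, filterByExpr, quasi-likelihood test, Benjamini-Hochberg adjustment over all tested genes). CPM and RPKM use the TMM factors. Log2 differences from the other 5 retinas use a pseudocount of 0.01 CPM. Intervals cover the spread between these samples, and the floor covers counting error only. Alternatives used DESeq2 1.42.0, limma 3.58.1, other scalings and filters, and each retina left out. The test was checked on simulated data.

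The 37 member genes and the other lists were chosen with earlier results of these data known. Values per retina are given for genes past an unadjusted p of 0.05 or without overlap, for the 3 largest fold changes in each direction, and for the highest and lowest mean RPKM over the 6 retinas in each role. Of the other cilium genes, the 3 with the smallest p in each direction are named. Ttc8, Cep290, Cluap1, Ahi1, Mkks, Ift22 and Ift74, and of the other cilium genes Evc, Evc2 and Cc2d2a, were named after their values were seen.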

Additional observations from a re-analysis of the deposited data

How the results depend on the processing

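Values refer to log2 fold changes, Wfs1-KO minus WT, unless another quantity is named. The count of the 37 cilium genes past an adjusted p of 0.05 was 0 under every alternative. The count at an unadjusted p under 0.05 was 0 to 1 over the fits that left out 1 retina. The 1 was Bbs7 (-0.64) without Wfs1-KO replicate 1. In that edgeR fit 711 of 19017 tested genes were higher and 94 lower at the same threshold. The median over these genes was -0.11 to 0.013 with 1 retina left out, the lowest without Wfs1-KO replicate 3. The number of them without overlap was 2 with RLE size factors and 2 to 6 with 1 retina left out. Without Wfs1-KO replicate 2 there were 1 higher (11.0% of all tested genes) and 4 lower (11.4%). In the other fits the shares of all genes without overlap are not given, so those counts cannot be read as particular to these genes. Genes past an adjusted p of 0.05 numbered 9 with no filter, 49 with DESeq2, 1 with the replicate block and 0 to 95 with 1 retina left out, the 24 of edgeR and the 95 of DESeq2 being without Wfs1-KO replicate 2, the latter an alternative chosen after seeing the data. Wfs1 passed the threshold with DESeq2 (-3.17), and lay between -3.61 and -2.64 with 1 retina left out.

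Some of these genes near 0 changed sign with the scaling, filter or tool. Bbs12 was -0.0053 with RLE size factors, -0.019 with no filter and -0.0083 with DESeq2. Arl6 was -0.021 with no filter and -0.0038 with DESeq2. Nphp4 was -0.0014 with RLE size factors, -0.0058 with no filter, -0.0025 with DESeq2, -0.0019 with limma-voom and -0.017 with the replicate block. Iqcb1 was -0.0094 with RLE size factors, -0.024 with no filter and -0.012 with DESeq2. Topors was 0.00044 with upper-quartile factors. The median of all genes was 0.10 with DESeq2, against 0.02. With 1 retina left out, 27 genes changed sign at least once, 20 of them without Wfs1-KO replicate 2. Their ranges were -0.32 to 0.14 for Bbs1, -0.11 to 0.0021 for Bbs2, -0.14 to 0.024 for Bbs5, -0.21 to 0.039 for Bbs9, -0.40 to 0.15 for Ttc8, -0.059 to 0.037 for Bbs12 and -0.14 to 0.12 for Arl6. They were -0.15 to 1.19 for Ift20, -0.23 to 0.27 for Ift22, -0.067 to 0.56 for Ift27, -0.014 to 0.10 for Ift52, -0.24 to 0.22 for Ift74, -0.30 to 0.044 for Ift80, -0.16 to 0.065 for Ift81, -0.24 to 0.57 for Cluap1, -0.18 to 0.55 for Ift43 and -0.21 to 0.11 for Ift140. They were -0.055 to 0.51 for Kif3a, -0.11 to 0.34 for Kif17, -0.39 to 0.18 for Cep290, -0.20 to 0.0045 for Rpgrip1, -0.17 to 0.22 for Nphp4, -0.081 to 0.077 for Iqcb1, -0.55 to 0.022 for Tmem67, -0.65 to 0.0092 for Rp1, -0.20 to 0.32 for Tulp1 and -0.066 to 0.037 for Topors. With DESeq2 and without Wfs1-KO replicate 2 they included -0.068 for Ift27, -0.015 for Ift52, 0.043 for Ift80, 0.064 for Ift81, -0.031 for Iqcb1 and 0.0087 for Rp1.

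Deviations of same-numbered samples correlated at -0.234, -0.111 and 0.0784. These values rest on few retinas, with Wfs1-KO replicate 2 apart from the others, and cannot decide whether the replicate numbers pair the retinas. The cause of the changes of sign was not tested. With 3 retinas per genotype, intervals that reached a log2 change of 1 for 10 of these genes limit what can be said of them.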
